A study of Homo sapiens and Mus musculus with 26 samples.

Results

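Untreated cells of the cisplatin-resistant clone 2102EP-C1 (C1) were compared with untreated cells of the parental line 2102EP (EP), in 6 RNA-seq libraries of the 26 in the series. 2102EP is an established human embryonal carcinoma line from a testicular germ cell tumor (TGCT), and C1 is an isogenic clone derived from it that resists cisplatin. The members were taken from the sample labels: 4 C1 and 2 EP control libraries, each kept in the DMSO vehicle for 4 days, with no PFOS and no cisplatin named in the labels. As C1 is 1 clone, a difference between it and EP can belong to that clone, to resistance or to time in culture, and these cannot be told apart. Libraries of both lines exposed to the fluorinated surfactant PFOS, at 10 nM over the same 4 days (4 of C1 and 2 of EP), were set beside the controls for the same difference.

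The lines lie in separate tables that were normalized apart and use different releases of gene names. Cell line and table therefore cannot be told apart, and no p-value is given. Reads on genes were 27.4 to 31.9 M in the C1 controls and 33.3 and 39.1 M in the EP controls. The 15759 gene symbols in both tables held 98.9% to 99.0% of the reads of each control library. Genes were considered at 1 CPM (reads in 1000000 reads on a common scale) or more in at least 2 of the 6 libraries, which left 14804. The difference of a gene is its mean log2 CPM in C1 minus that in EP, after adding 2 reads. A gene was called when the difference was at least 2 log2 units (4-fold) and no C1 library overlapped any EP library.

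Embryonal carcinoma is the pluripotent, stem-cell-like form of TGCT. Its cells keep the transcription factors and the high DNA methyltransferase 3B level of early embryonic cells, and can differentiate toward mesoderm, endoderm and extraembryonic lineages. TGCTs are known for their sensitivity to cisplatin, which crosslinks DNA, is removed by nucleotide excision repair and can trigger cell death. Cells can also limit cisplatin by transport or by thiol-rich molecules such as glutathione and metallothioneins.

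The rule picked 248 of the 14804 genes (1.68%) as higher and 362 (2.45%) as lower in C1. For some of them 1 line had next to no reads: 112 of the higher genes were below 1 CPM in every EP library, and 81 of the lower genes were below 1 CPM in every C1 library. Such genes entered through the line in which they were high. Within a line the libraries lay close together. The 2 EP controls were 2 log2 units apart for 2 genes, and the range of the 4 C1 controls reached that size for 7 genes. By the same rule, 10 nM PFOS against control called 0 genes within C1, and 1 higher and 0 lower within EP.

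The difference between the lines followed the GC content of the transcript. Over the 13942 genes with a GC content and length in the annotation (94.2%), Spearman's rho of the difference with GC content was -0.57, given as a description. In the 10% of genes with the lowest GC content, up to 38.4%, the median difference was 0.64, and in the 10% with the highest, from 61.8%, it was -1.03. The same order was seen between the 2 EP controls, where library 2 minus library 1 had a median of 0.11 in the lowest and -0.14 in the highest 10% (rho -0.53). Of the lower calls, 141 fell in the 10% of genes highest in GC content. The part of the base composition in the differences was not tested, so the genes that the results turn on are given with a second value, the difference after a smooth trend with GC content and transcript length was removed. With that trend removed as well, 133 of the higher genes (0.954% of the 13942) and 144 of the lower genes (1.03%) were still called. These are named below as called on both scales.

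**Figure D1:**
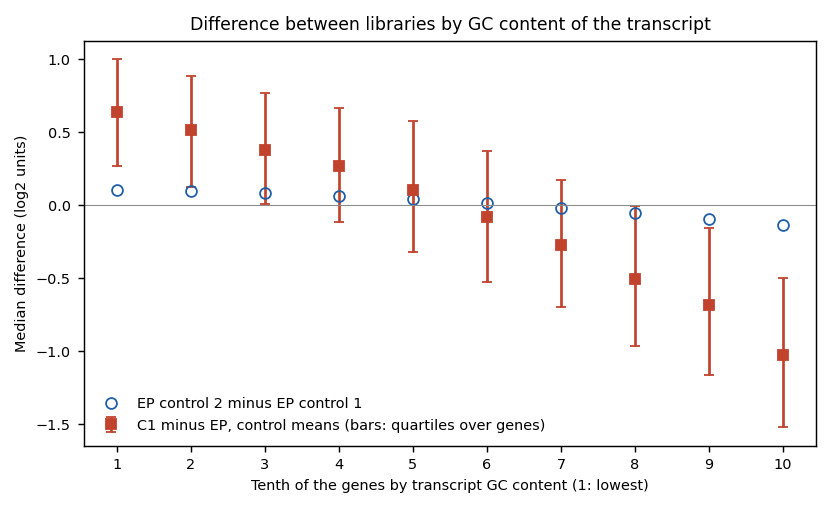
Median difference in log2 units (y axis) in 10 equal groups of genes ordered by transcript GC content (x axis). Squares are C1 minus EP control means with the quartiles over genes as bars, and open circles are EP control library 2 minus library 1. Squares go from 0.64 to -1.03 and circles from 0.11 to -0.14 over the same groups.

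Scaling moved the balance of the calls. By total reads in place of the trimmed mean of M values, the median of all genes shifted by 0.12 log2 units and the calls became 306 higher and 292 lower, so 51.2% in place of 40.7% were higher. With the GC and length trend removed, the counts were 212 higher and 164 lower, and 56.4% were higher. Which direction held more genes thus depended on the scaling. Among the called genes named here, the calls of CER1, WNT5A, TEX11, TIMP1, MMP9, LAMA5, PHLDA2, ACTA2 and LEFTY1, all near the threshold, were lost under at least 1 of the 4 other scalings.

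The largest differences among well-expressed genes took in both cell surface and matrix genes. The gene furthest lower was GRPR, a receptor for gastrin-releasing peptide, at 0.432, 0.247, 0.203 and 0.220 CPM in C1 and 25.4 and 27.3 CPM in EP. Its difference was -6.33 log2 units and -6.64 with the trend removed. TAGLN, which encodes the actin-binding protein transgelin of smooth muscle and mesenchymal cells, was at 10.5, 10.09, 11.01 and 11.8 CPM in C1 and 318 and 363 CPM in EP, a difference of -4.96. Both genes were expressed clearly in EP, and GRPR was below 1 CPM in all 4 C1 libraries while TAGLN kept a clear level there.

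VGF, a secreted neuroendocrine peptide precursor, was at 4.14, 4.07, 4.81 and 5.94 CPM in C1 and 126 and 118 CPM in EP, with a difference of -4.68. COL12A1, a fibril-associated collagen, was at 1.58, 0.925, 1.19 and 1.41 CPM in C1 and 24.4 and 30.7 CPM in EP, with a difference of -4.38. HCLS1, an actin-regulating adaptor of blood cells, was at 2.09, 2.04, 1.66 and 1.89 CPM in C1 and 41.6 and 39.4 CPM in EP, with a difference of -4.36. No C1 library of these 3 genes came near either EP library.

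LOX, the enzyme that crosslinks collagen and elastin, was at 0.972, 0.586, 1.12 and 1.85 CPM in C1 and 20.6 and 22.5 CPM in EP, a difference of -4.28. CDC42EP1, an effector of the small GTPase CDC42, differed by -4.14, and MAGEC1, a cancer-testis antigen gene on the X chromosome, by -4.06. The other genes of the 12 with the largest differences downward were SCARF2 at -3.84, UTF1 at -3.79, MT2A at -3.74 and COL7A1 at -3.61. All 12 were called lower on both scales. TAGLN, SCARF2 and COL7A1 share exon bases with another annotated gene on the same strand, so their reads may be split differently in the 2 annotations. The same holds for ACTA2, LAMA5 and LEFTY1 among the called genes described further on.

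In the other direction, CCR3, a chemokine receptor of eosinophils, was at 24.1, 22.5, 24.7 and 25.7 CPM in C1 and 1.21 and 1.23 CPM in EP, a difference of 4.24. EPHA3, an ephrin receptor tyrosine kinase, was at 15.4, 15.1, 15.8 and 18.2 CPM in C1 and 0.698 and 1.07 CPM in EP, a difference of 4.12. CLEC7A, the beta-glucan receptor dectin-1, was at 59.4, 73.1, 50.9 and 56.9 CPM in C1 and 3.97 and 4.42 CPM in EP, a difference of 3.81. In EP these genes lay at or below 4.42 CPM, whereas each C1 library was at 15.1 CPM or above.

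TXNIP, the thioredoxin-interacting protein that limits glucose uptake, was at 43.6, 43.9, 60.2 and 57.8 CPM in C1 and 8.06 and 7.71 CPM in EP, a difference of 2.68. The range of the C1 libraries was widest in relative terms for CLEC7A and TXNIP among these genes, but it did not reach the EP libraries. ATP8B3 (3.04), a lipid flippase gene, MGAT4A (3.01), a glycosyltransferase gene, PRXL2A (2.80) and UGT3A1 (2.64) were also among the 12 with the largest differences upward. So were MEG3, MEIOB and HORMAD1, described with the imprinted and germline genes. Of the 12, all except HORMAD1 were called higher on both scales.

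**Figure D2:**
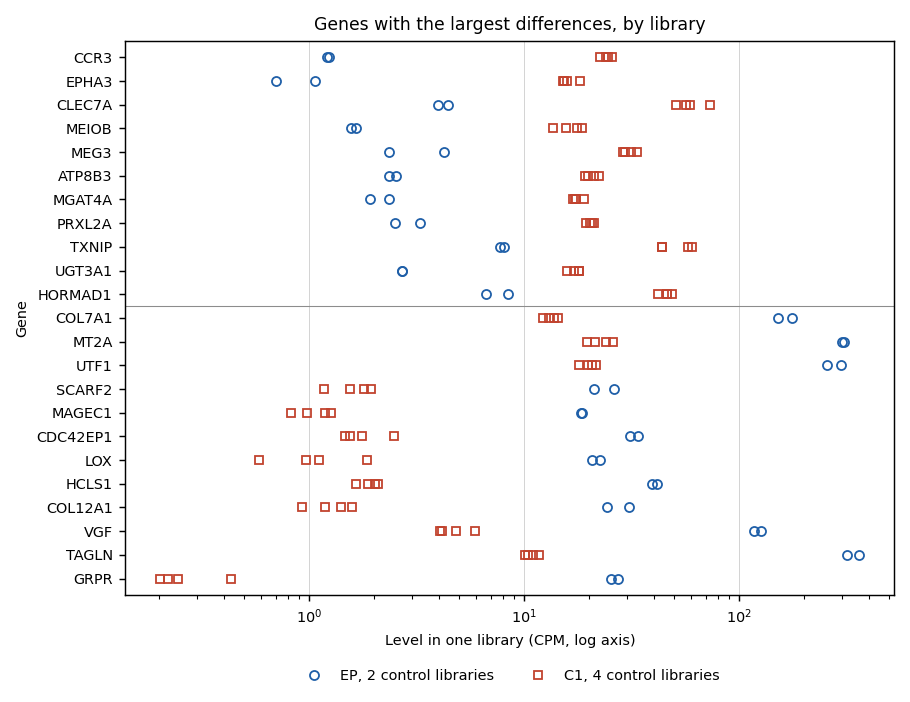
Level in each library of genes with the largest differences, in CPM on a log axis (x axis), with 1 gene per line (y axis). Squares are the 4 C1 and circles the 2 EP control libraries, and the genes above the line are higher and the 12 below it lower in C1. For no gene do squares and circles overlap.

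Markers of embryonal carcinoma were high in both lines, which was checked before other genes. The 14 markers used for this check were in both tables and summed to 10138 to 10293 CPM in the C1 and 10797 to 11103 CPM in the EP libraries. POU5F1 (OCT4), a core pluripotency factor, was at 798, 779.7, 834 and 825 CPM in C1 and 1197 and 1175 CPM in EP, a difference of -0.55 that became 0.03 with the trend removed. NANOG differed by 0.67 and SOX2 by 0.21. LIN28A, which blocks maturation of let-7 microRNAs, was at 2116 CPM in C1 and 1653 CPM in EP on average (difference 0.36). These 4 genes differed by less than 1 log2 unit.

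In the full list of 20 embryonal carcinoma markers, 2 were called lower and 0 higher, beside 2.45% and 1.68% of all genes. Both were called on both scales, beside 1.03% of all genes. TNFRSF8, the CD30 receptor used as a diagnostic marker of embryonal carcinoma, was at 15.1, 15.7, 15.1 and 13.9 CPM in C1 and 144 and 134 CPM in EP, a difference of -3.21 and -2.51 with the trend removed. UTF1, a chromatin-bound factor of undifferentiated embryonic cells, was at 19.8, 17.9, 20.8 and 21.6 CPM in C1 and 299 and 256 CPM in EP, a difference of -3.79 and -2.43. Its transcript had the highest GC content of the genes considered, 76.9%. The fitted trend is held flat at that end, so the second value of UTF1 may still hold part of the trend. CD30 transcript thus lay near 15 CPM in each C1 library and above 133 CPM in each EP library. The median of the list was 0.23, beside 0.02 over all genes. PODXL (-1.31), which carries the TRA-1 epitopes, and ZFP42 (-1.03) were not called.

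Markers of other cell types were partly present. Of 5 yolk sac markers, GATA4 was in both tables (1.48 to 1.76 CPM in C1, 2.25 and 2.77 CPM in EP), GATA6 was in the EP table alone, and AFP, APOA1 and FOXA2 were in neither. The seminoma marker SOX17 was in neither table, and the other 4 summed to 260 to 273 CPM in C1 and 273 and 276 CPM in EP, mostly from PDPN (119 CPM in C1 and 115 CPM in EP on average) and TFAP2C (102 CPM in C1 and 139.9 CPM in EP). The 3 blood markers PTPRC, HBB and CD3E were in neither table. The fibroblast markers DCN and LUM were in neither table, and COL1A1, COL1A2 and COL3A1 summed to 96.2 to 109 CPM in C1 and 296 to 323 CPM in EP. The trophoblast marker CGA was in neither table, and the other 4 summed to 24.5 to 33.8 CPM in C1 and 71.9 to 76.8 CPM in EP. Among the wider lists, GATA3 (-2.20) and CDX2 (-2.54) of 8 trophoblast genes were called lower, beside 2.45% of all genes. So were EOMES (-2.14) and CER1 (-2.10) of 6 yolk sac and endoderm genes. Of these genes, CER1 was called on both scales. In bulk RNA a smaller share of differentiated cells and less RNA per cell cannot be told apart. Of 11 seminoma and 10 neural genes 0 were called, beside 1.68% higher and 2.45% lower of all genes. KIT, the receptor of primordial germ cells, was at 15.8 CPM in C1 and 4.19 CPM in EP (1.89).

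Genes of the extracellular matrix and of mesenchymal cells lay mostly below 0, with 43 of 50 lower in C1 than in EP by their mean. Collagens, crosslinking enzymes and matricellular proteins build the scaffold around cells, and their genes are typical of fibroblasts and of cells that have lost epithelial features. Of the 50 genes considered, 12 were called lower and 0 higher, beside 2.45% and 1.68% of all genes, and 8 were called lower on both scales. The median difference of the list was -1.21, or -0.95 with the trend removed. The sum of the 3 fibroblast collagens moved the same way, while DCN and LUM were in neither table, and the part of other cell types in these differences was not tested.

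TNC (tenascin-C), a matricellular glycoprotein, was at 36.2, 36.2, 32.8 and 35.0 CPM in C1 and 305 and 327 CPM in EP, a difference of -3.17. TIMP3, an inhibitor of matrix metalloproteinases bound to the matrix, differed by -2.49, and TGFBI, a matrix protein induced by TGF-beta, by -2.39. ZEB2, a repressor of epithelial genes, was at 1.40, 0.802, 0.880 and 0.943 CPM in C1 and 6.54 and 8.06 CPM in EP, a difference of -2.81. These 4 genes were called on both scales. COL18A1 (-2.38), LAMA5 (-2.0), MMP9 (-2.04) and TIMP1 (-2.11) were called only before the trend was removed.

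Among members that were not called, the fibrillar collagen gene COL1A1 differed by -1.76 and COL1A2 by -1.53, the intermediate filament gene VIM by -1.27, and FN1 by -1.15. Values on the other side of 0 were found for the laminin genes LAMC1 (0.99) and LAMA1 (0.94) and for the proteoglycan gene VCAN (0.52). LAMC1 was among the most read of these genes, at 1266, 1287, 1141 and 1103 CPM in C1 and 575 and 629.7 CPM in EP. Beside 2.45% of all genes lower, JUP (plakoglobin, -2.30) was the only one of 33 epithelial adhesion and keratin genes called, lower and not on both scales. These genes also lay mostly below 0, 27 of 33, with a median of -0.66 (-0.37 with the trend removed).

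Contractile and YAP target genes, a list added after values had been seen, held 7 genes called lower and 0 higher among 23, of which 4 were called on both scales, beside 2.45% and 1.03% lower over all genes. As the list was chosen on these values, its count is a description. YAP works with TEAD factors as a sensor of cell tension, and CCN2 and ANKRD1 are standard readouts of it. ANKRD1 was at 3.53, 5.43, 5.05 and 4.43 CPM in C1 and 36.03 and 37.7 CPM in EP, a difference of -3.0. CCN2 (CTGF) was at 7.30, 8.05, 7.99 and 8.49 CPM in C1 and 42.9 and 46.0 CPM in EP, a difference of -2.47. MYL9, the regulatory light chain of smooth muscle myosin, was at 32.7, 36.8, 32.8 and 29.3 CPM in C1 and 248 and 259.9 CPM in EP, a difference of -2.95. For these 3 genes every C1 library lay well below both EP libraries. ZYX (zyxin), a focal adhesion protein, differed by -2.64 and by -1.72 with the trend removed. CCN1, another target of YAP, did not reach the fold needed (-1.87). Of the 23 genes, MYH11 (0.32) had the only difference above 0.

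Of 12 mesoderm markers 6 were called lower and 0 higher, beside 2.45% and 1.68% of all genes, with a median difference of -1.93 (-1.70 with the trend removed). They were TAGLN, MYL9, FOXC2 (-2.82), PDGFRB (-2.47), FOXC1 (-2.28) and ACTA2 (-2.04), of which TAGLN and MYL9 were called on both scales and are also on the contractile list. The primitive streak genes TBXT (-1.45) and MIXL1 (-1.83) were not called, and DES (desmin, 1.88) and PDGFRA (1.17) lay on the other side of 0.

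**Figure D3:**
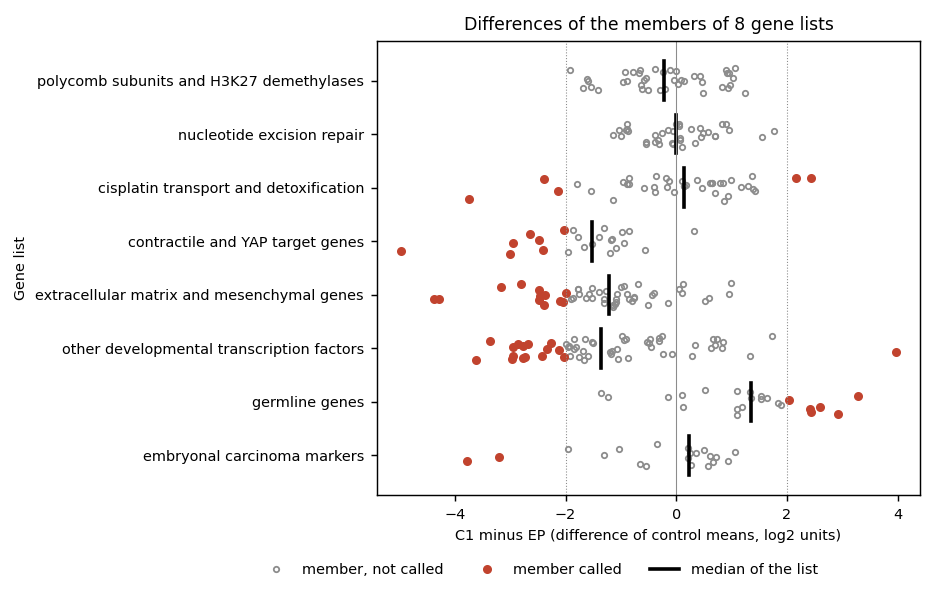
Difference of control means, C1 minus EP in log2 units (x axis), of each considered member of 8 gene lists (y axis). Filled points are called genes, open points are not called, black bars are list medians and dotted lines mark 2 log2 units in each direction. The matrix, contractile and developmental factor lists have medians of -1.21, -1.53 and -1.35, and the germline list 1.34.

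Other developmental transcription factors held 15 genes called lower and 1 higher among 58, beside 2.45% and 1.68% of all genes, with a median of -1.35 and, with the trend removed, -0.81. Such regulators of organ formation are mostly silent or poised in pluripotent cells, many under polycomb, and their transcripts are often rich in GC. The median GC content of the list was 57.1%, and in the 10% of genes highest in GC content 141 of 1395 were called lower. Of the 15, 5 were called on both scales, beside 1.03% of all genes. PITX1, a homeobox factor of hindlimb and pituitary, was at 0.288, 0.555, 0.576 and 0.629 CPM in C1 and 5.75 and 5.57 CPM in EP, a difference of -3.36 (-2.03 with the trend removed). RUNX1, a regulator of blood formation, was at 2.16, 2.04, 1.66 and 2.67 CPM in C1 and 16.5 and 17.4 CPM in EP, a difference of -2.97 (-3.07). RUNX2 (-2.42), a bone factor, and MSX1 (-2.94) were also called on both scales.

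The other 10, among them NKX2-5 (-2.96), TBX1 (-2.76), FOXD3 (-2.73) and TBX2 (-2.68), were called before the trend was removed and not after. SOX21, a neural SOXB2 factor that counteracts SOX2, was the gene higher in C1, at 14.6, 12.6, 14.1 and 15.9 CPM in C1 and 0.762 and 0.960 CPM in EP, a difference of 3.96 (4.35). Each EP library had less than 1 CPM of SOX21 and each C1 library more than 12 CPM. Of 12 HOX genes considered 0 were called, beside 1.68% higher and 2.45% lower of all genes.

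Signalling genes were mostly within 2 log2 units, with a few ligands lower. The TGF-beta family signals through SMAD factors, and its Nodal branch maintains pluripotent cells. Of 44 genes considered, 5 were called lower and 0 higher, beside 2.45% and 1.68% of all genes. On both scales 4 were called lower, INHBA, GREM1 and TGFB1 among them, beside 1.03% of all genes. INHBA, which encodes the subunit of activin A, was at 0.684, 0.648, 0.203 and 0.691 CPM in C1 and 6.79 and 6.67 CPM in EP, a difference of -3.57. GREM1, a secreted antagonist of BMPs, was at 1.26, 1.33, 1.46 and 0.943 CPM in C1 and 13.6 and 14.5 CPM in EP, a difference of -3.45. The ligand gene TGFB1 was at 4.07, 4.16, 3.45 and 4.90 CPM in C1 and 35.4 and 33.2 CPM in EP, a difference of -3.04.

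These genes of secreted factors were each below 5 CPM in every C1 library. LEFTY1 (-2.09), an inhibitor of Nodal, was called lower as well, with -1.17 after the trend was removed. NODAL itself differed by -1.07 and its coreceptor gene TDGF1 by 0.62. The receptors TGFBR1 (0.61) and TGFBR2 (-0.35) and the transducers SMAD2 (0.90), SMAD3 (-1.0) and SMAD4 (0.70) were not called. TGFB2 was in the EP table alone, at a mean of 8.59 CPM, and shares exon bases with another gene, so no comparison was made for it.

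In the FGF and receptor tyrosine kinase list, 4 of 56 genes were called lower and EPHA3 higher, beside 2.45% and 1.68% of all genes. FGF8, a ligand of gastrulation, was at 1.01, 1.20, 0.948 and 1.07 CPM in C1 and 13.8 and 11.3 CPM in EP, a difference of -3.49 (-2.42 with the trend removed). DUSP6, the phosphatase that ERK signalling induces and that switches ERK off, was at 2.63, 2.78, 3.49 and 3.27 CPM in C1 and 26.5 and 26.9 CPM in EP, a difference of -3.12 (-3.27). Other readouts of the same pathway lay on both sides of 0, with ETV5 at 1.64, SPRY2 at 1.06 and SPRY4 at -1.40, and none of these was called. The FGF4 ligand gene, a target of POU5F1 and SOX2, was at 98.1 CPM in C1 and 51.1 CPM in EP (0.94). IGFBP6 (-2.99) and PDGFRB were called lower and not on both scales.

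Of 46 WNT pathway genes, 4 were called lower, beside 2.45% of all genes. They were TCF7L1 (-2.70), FZD2 (-2.34), WNT10B (-2.17) and WNT5A (-2.04), of which WNT5A was called on both scales. WNT5A, a ligand of the noncanonical branch, was at 5.04, 5.00, 5.59 and 5.44 CPM in C1 and 22.1 and 21.5 CPM in EP. AXIN2 (-0.38), a common readout of beta-catenin activity, was not called. Among 27 immediate early and stress genes, CHAC1 (-2.72), FOSL1 (-2.37) and MYC (-2.27) were called lower, MYC on both scales, beside 2.45% of all genes lower. MYC was at 13.5, 12.2, 13.4 and 12.4 CPM in C1 and 61.6 and 62.8 CPM in EP.

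Germline genes lay in the opposite direction. Genes of meiosis and of the piRNA pathway, which silences transposons, are normally active in germ cells and silenced in other cells by promoter DNA methylation and by a noncanonical polycomb complex. Of 54 genes listed, 25 were in both tables and 23 were considered, of which 6 were called higher and 0 lower, beside 1.68% and 2.45% of all genes. The median difference was 1.34, and 1.05 with the trend removed, and 20 of the 23 lay above 0. STK31, TDRD1, PIWIL2 and DPEP3 were below 1 CPM in both EP libraries and were considered only through their level in C1. The median and the counts are thus partly set by the filter. MEIOB and STK31 were called on both scales, beside 0.954% of all genes.

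MEIOB, a single-strand DNA binding protein of meiotic recombination, was at 15.6, 18.5, 17.5 and 13.6 CPM in C1 and 1.65 and 1.56 CPM in EP, a difference of 3.29 (2.84 with the trend removed). STK31, a testis kinase with a Tudor domain, was at 4.64, 3.92, 4.23 and 5.25 CPM in C1 and 0.476 and 0.603 CPM in EP, a difference of 2.92 (2.43). HORMAD1, a protein of the unsynapsed meiotic chromosome axis, was at 46.3, 48.5, 46.0 and 41.9 CPM in C1 and 6.63 and 8.45 CPM in EP, a difference of 2.60 (1.78). No C1 library of these genes came near an EP library. MEIOB shares exon bases with another gene.

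TDRD1, a Tudor protein of the piRNA pathway, was at 5.398, 4.596, 6.03 and 6.25 CPM in C1 and 0.984 and 0.960 CPM in EP, a difference of 2.43 (1.94). BRDT, the testis bromodomain protein, was at 23.6, 26.2, 25.7 and 21.8 CPM in C1 and 4.63 and 4.33 CPM in EP, a difference of 2.42 (1.87). TEX11, an X-linked gene of meiotic crossover formation, was at 6.05, 7.002, 6.43 and 5.41 CPM in C1 and 1.37 and 1.59 CPM in EP, a difference of 2.03 (1.53). These 3 genes and HORMAD1 stayed above 1.5 log2 units but below 2 with the trend removed. The meiosis gene TEX15 (1.83), the Tudor gene TDRD5 (1.34), DMC1 (1.53) and PIWIL2 (1.53) had differences of the same sign and were not called, whereas GTSF1 (-1.23) and ADAD2 (-1.36) were on the other side.

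A further 7 listed germline genes were in the C1 table alone, among them PIWIL1 at a mean of 2.58 CPM, SYCP1 at 1.64 CPM, TDRD6 at 0.974 CPM, DDX4 at 0.864 CPM and DAZL at 0.470 CPM, and 2 (ASZ1 and MOV10L1) were in the EP table alone, both below 0.5 CPM. A gene may be listed in 1 table alone because of the low-read cutoff applied to each table, so no fold is given. CTCFL (BORIS), the testis paralog of CTCF that is itself silenced by DNA methylation in somatic cells, was at 5.69, 4.97, 6.37 and 6.91 CPM in C1 and 0.413 and 0.357 CPM in EP, a difference of 3.75 (3.49). Among 6 cancer-testis antigen genes considered, MAGEC1 was called lower and 0 were called higher, beside 2.45% and 1.68% of all genes. MAGEC1 was at 0.828, 1.26, 1.19 and 0.974 CPM in C1 and 18.7 and 18.4 CPM in EP. A further 5 listed cancer-testis antigen genes were in the C1 table alone, MAGEA4 (1.74 CPM) and PRAME (1.66 CPM) among them. In the EP table alone were 2, VCX3A (3.13 CPM) and XAGE2 (0.423 CPM).

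Promoters of germline genes were read for the motifs of factors known to act there, in the 250 bases before the RefSeq start (GRCh38.p14). Of the 6 genes called higher, 4 had a promoter in the table, and 3 of these held the E-box CACGTG, which reads the same on both strands. They are shown next, chosen after their values were seen, with the E-box in capitals. The E-box was in 9 of 45 promoters of the germline list (20.0%), beside 8.72% of the promoters of all considered genes and 6.49% of all promoters. The E2F6 motif TCCCGC, in either strand, was in 35.6% of the germline promoters and in 36.8% of those of considered genes.
STK31 (chr7:23709969-23710218, plus strand): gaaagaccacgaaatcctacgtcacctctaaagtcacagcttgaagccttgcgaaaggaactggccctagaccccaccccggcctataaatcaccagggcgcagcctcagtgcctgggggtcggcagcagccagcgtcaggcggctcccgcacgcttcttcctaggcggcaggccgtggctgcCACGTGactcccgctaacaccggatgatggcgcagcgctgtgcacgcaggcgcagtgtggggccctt
TDRD1 (chr10:114179037-114179286, plus strand): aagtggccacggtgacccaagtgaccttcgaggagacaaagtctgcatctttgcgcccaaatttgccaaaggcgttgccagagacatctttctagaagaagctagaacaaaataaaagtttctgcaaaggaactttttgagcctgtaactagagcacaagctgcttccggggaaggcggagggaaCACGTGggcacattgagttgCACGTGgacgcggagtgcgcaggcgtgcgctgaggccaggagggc
BRDT (chr1:91949121-91949370, plus strand): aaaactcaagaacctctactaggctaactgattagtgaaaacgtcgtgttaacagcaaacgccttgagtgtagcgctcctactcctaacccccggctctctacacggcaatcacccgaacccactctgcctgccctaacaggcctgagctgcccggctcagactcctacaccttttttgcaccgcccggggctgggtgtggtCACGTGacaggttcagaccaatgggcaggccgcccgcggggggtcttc
The E-box started 67 bases before the start in STK31, 65 and 45 in TDRD1 and 48 in BRDT, with 19, 13 and 14 CpG dinucleotides in these windows beside a median of 21 for considered genes. A match is a run of letters and not a measured binding site.

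For the genes called lower on both scales, 97 had a promoter in the table. The AP-1 motif TGANTCA, in either strand, was in 15 of them (15.5%), beside 4.00% of the promoters of considered genes, 6.57% of all promoters and 3.26% of those called higher on both scales. The TEAD motif GGAATG, in either strand, was in 17 (17.5%), beside 9.43%, 11.9% and 14.1%. These promoters also held fewer CpG dinucleotides than those of considered genes, with a median of 16 for lower and 14.5 for higher genes beside 21, and 11 for all promoters, and the part of this in the motif counts was not tested. In the matrix genes called lower the AP-1 motif was in 0 of 10 promoters. It was in 1 of 35 promoters of the whole matrix list (2.86%) and 1 of 20 of the contractile and YAP target list (5%). The promoters of ANKRD1 and MT2A, chosen in the same way as examples of genes with large differences, are shown with the TEAD and the AP-1 motif in capitals.
ANKRD1 (chr10:90921088-90921337, minus strand): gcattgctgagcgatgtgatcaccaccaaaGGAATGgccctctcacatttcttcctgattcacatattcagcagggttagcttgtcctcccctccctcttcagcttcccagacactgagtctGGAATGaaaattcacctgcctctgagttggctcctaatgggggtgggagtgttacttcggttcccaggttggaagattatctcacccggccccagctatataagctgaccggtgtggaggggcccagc
MT2A (chr16:56608334-56608583, plus strand): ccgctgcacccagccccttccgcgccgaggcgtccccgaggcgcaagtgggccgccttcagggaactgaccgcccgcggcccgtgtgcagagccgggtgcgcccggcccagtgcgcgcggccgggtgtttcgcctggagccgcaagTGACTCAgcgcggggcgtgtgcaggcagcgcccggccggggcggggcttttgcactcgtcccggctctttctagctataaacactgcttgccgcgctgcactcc

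Imprinted genes, which are expressed from 1 parental copy, were mostly close between the lines. Of 30 considered, 1 was called higher and 2 lower, beside 1.68% and 2.45% of all genes, and the median difference was 0.17. MEG3, a noncoding RNA of the DLK1-MEG3 domain on chromosome 14, was at 28.9, 29.3, 31.4 and 33.6 CPM in C1 and 4.25 and 2.36 CPM in EP, a difference of 3.25 (3.897 with the trend removed). Its neighbor DLK1, expressed from the paternal copy, was at 5.87, 7.06, 6.84 and 7.35 CPM in C1 and 2.76 and 2.66 CPM in EP (1.30). MEG8 (6.76 CPM) and MEG9 (2.36 CPM), noncoding RNAs of the same domain, were in the C1 table alone. Both share exon bases with other genes, so no comparison was made for them. The nearest considered genes outside the domain, WDR25 (-0.08, and 0.19 with the trend removed) and SLC25A29 (-0.18, and 0.81), were not called.

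PLAGL1, an imprinted zinc finger gene, was at 2.95, 3.45, 2.17 and 3.05 CPM in C1 and 25.9 and 23.8 CPM in EP, a difference of -3.09 (-3.15), and PHLDA2 differed by -2.07 (-1.16). MEG3 and PLAGL1 share exon bases with other genes. IGF2 was in the EP table alone, at 3.53 CPM, and it shares exon bases with another gene, so no comparison was made for it. PEG10 (-0.25), GNAS (-0.61) and MEST (0.52), all with means above 100 CPM in both lines, differed by less than 1 log2 unit.

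Chromatin regulators stayed within 2 log2 units, CTCFL apart. Of 40 polycomb subunits and H3K27 demethylases 0 were called, beside 1.68% higher and 2.45% lower of all genes. The differences of the 40 ran from -1.92 to 1.24 with a median of -0.23. The methyltransferase gene EZH2 was at 63.4, 64.6, 62.1 and 64.7 CPM in C1 and 59.9 and 60.6 CPM in EP, a difference of 0.08. SUZ12 differed by 0.46 and EED by 0.96. BMI1 was in the EP table alone at 1.26 CPM, and it shares exon bases with a read-through gene, so no comparison was made for it.

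Of 24 DNA methylation genes, CTCFL was the only one called (4.17%), beside 1.68% higher and 2.45% lower of all genes. DNMT3B, the de novo methyltransferase that is characteristic of embryonal carcinoma, was at 1416, 1301, 1363 and 1320.3 CPM in C1 and 2095 and 2149 CPM in EP, a difference of -0.65 (-0.35 with the trend removed). DNMT1 differed by -0.62 (-0.30), DNMT3A by -0.68 (-0.31) and the cofactor gene DNMT3L by 0.79 (1.37). The demethylase gene TET1 differed by 1.0. The 3 active methyltransferase genes were thus lower in every C1 library than in either EP library, by less than 1 log2 unit. DNMT1 shares exon bases with another gene.

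Genes that limit cisplatin gave 2 calls upward and 3 downward among 40, beside 1.68% and 2.45% of all genes. Metallothioneins bind metals, platinum included, through cysteines. MT2A was at 21.3, 19.7, 24.01 and 25.9 CPM in C1 and 301 and 306 CPM in EP, a difference of -3.74 (-3.19 with the trend removed). MT1E was at 23.1, 19.2, 27.6 and 26.8 CPM in C1 and 121 and 131 CPM in EP, a difference of -2.39 (-2.08). MT1M (-2.14) was called and MT1G (-1.79), MT1X (-0.97) and MT1F (-0.86) were not, and all lay below 0. Metallothionein genes are near-identical copies, so reads may be divided among them in either annotation.

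GSTA4, a glutathione transferase gene, was at 22.0, 22.9, 22.1 and 21.1 CPM in C1 and 3.94 and 4.14 CPM in EP, a difference of 2.43 (2.14), and was called on both scales. ABCC4 (MRP4), an efflux transporter, was at 30.7, 32.2, 29.3 and 29.2 CPM in C1 and 6.44 and 7.02 CPM in EP, a difference of 2.16 (1.88). The copper and cisplatin importer gene SLC31A1 (CTR1) was at 144, 132, 145 and 139 CPM in C1 and 80.7 and 80.3 CPM in EP (0.79). The exporters ABCC2 (0.93), ABCB1 (1.36), ATP7A (1.43) and ATP7B (0.10) and the transferase GSTP1 (-0.38) were not called. Of 20 NRF2 target genes 0 were called, beside 1.68% higher and 2.45% lower of all genes.

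DNA repair and death genes held no call, beside 1.68% higher and 2.45% lower of all genes. At those shares a list of this size holds few calls, so their absence is not read as a result about these genes. In nucleotide excision repair, 37 genes had a median of -0.01 and a range from -1.14 to 1.76. ERCC1, the partner of the XPF nuclease, was at 22.6, 26.0, 25.9 and 24.2 CPM in C1 and 26.6 and 24.8 CPM in EP (-0.06). XPA, the damage verification factor that is scarce in many TGCT cells, was at 3.89, 4.596, 4.40 and 4.56 CPM in C1 and 8.73 and 9.19 CPM in EP, lower in each C1 library by a difference of -1.03 (-1.32). In the 53 genes of the Fanconi anemia, recombination and mismatch repair list the median was 0.41 (0.15 with the trend removed).

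CDKN1A (p21), an inhibitor of cyclin-dependent kinases that DNA damage induces, was at 32.1, 33.1, 31.0 and 28.6 CPM in C1 and 51.2 and 49.6 CPM in EP, a difference of -0.69 (-0.14). Of 36 genes of the BCL2 family and death receptors 0 were called, beside 1.68% higher and 2.45% lower of all genes. MCL1 was at 0.59, BCL2L1 at -0.97 and the TRAIL receptor TNFRSF10B at 1.38.

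A pair of neighboring inhibitors of cyclin-dependent kinases were both called lower. CDKN2A, which encodes p16 and ARF, was at 0.396, 0.555, 0.237 and 0.503 CPM in C1 and 7.24 and 7.19 CPM in EP, a difference of -3.96 (-3.41 with the trend removed). CDKN2B (p15) is its neighbor on the same strand of chromosome 9. It was at 0.828, 0.925, 1.02 and 0.912 CPM in C1 and 5.14 and 5.49 CPM in EP, a difference of -2.45 (-2.75). CDKN2A stayed below 1 CPM in every C1 library, with reads in each of them. The flanking considered genes MTAP (-0.12, and -0.59 with the trend removed) and DMRTA1 (0.66, and 0.23) were not called. Both genes are on a list added after values had been seen, so their count is a description, beside 2.45% of all genes lower. The 13 other members of that list, RB1 (0.82) and the cyclins among them, were not called. The 30 proliferation genes had 0 calls and a median of -0.39, and the 78 ribosomal protein genes 0 calls and a median of 0.10. Over all genes 1.68% were called higher and 2.45% lower.

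Of the antigen presentation genes 10% and of the interferon-induced genes 10.34% were called, all lower, beside 2.45% of all genes. TAPBP (tapasin, -2.53), which loads peptides on MHC class I, and its homolog TAPBPL (-2.84) were called lower among 20 antigen presentation genes, and GBP3 (-2.82), SAMD9 (-2.37) and OAS3 (-2.19) among 29 interferon-induced genes. Of these, TAPBPL, GBP3 and SAMD9 were called on both scales, and TAPBPL and GBP3 share exon bases. Of 8 fibroblast and blood cell genes, the endothelial adhesion gene PECAM1 was the only one called, higher in C1, beside 1.68% of all genes. It was at 14.6, 15.7, 13.99 and 13.1 CPM in C1 and 2.92 and 3.40 CPM in EP (2.16). Of 38 glycolysis and hypoxia genes, ALDOA was the only one called, lower, beside 2.45% of all genes. ALDOA was at 6.94, 6.20, 10.9 and 9.49 CPM in C1 and 98.1 and 95.7 CPM in EP. ALDOA shares exon bases with a gene named in the EP table alone and differed by -1.38 in the 10 nM libraries, so its difference is uncertain. Protocadherins (47 considered) had 0 calls, beside 1.68% higher and 2.45% lower of all genes. Mitochondrial and replication-dependent histone genes had no symbol in both tables.

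**Figure D4:**
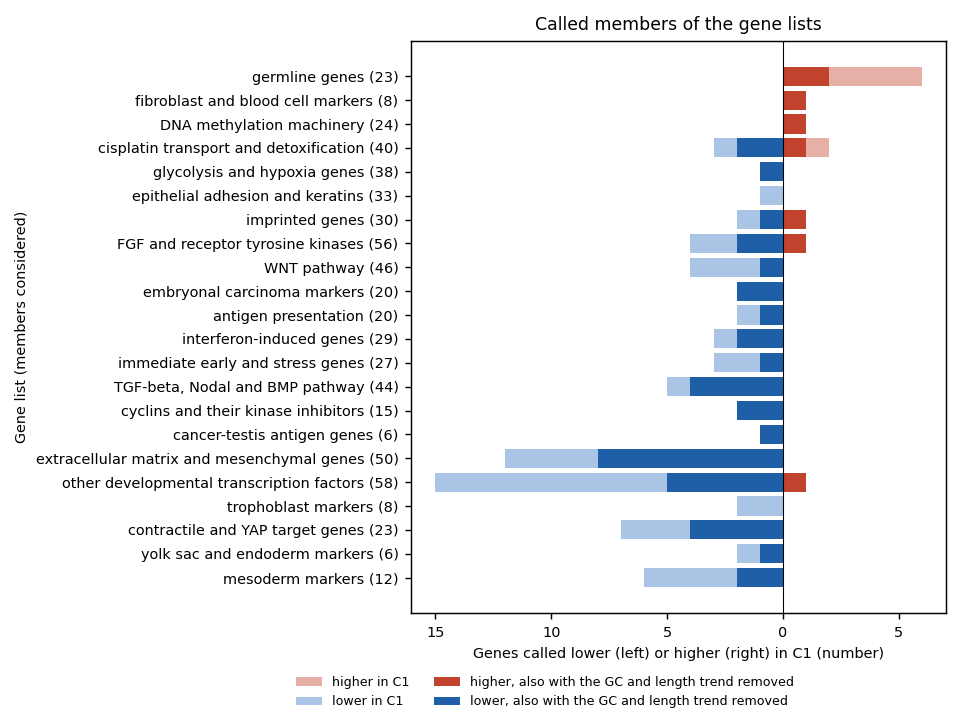
Number of genes called lower (bars to the left) or higher (bars to the right) in C1 (x axis) in gene lists with at least 1 call, with the number of members considered in parentheses (y axis). Dark bars are genes called also with the GC and length trend removed. The developmental factors (15 lower) and matrix genes (12 lower) have the longest bars to the left and the germline genes (6 higher) the longest to the right.

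Differences were also taken by position, on GRCh38 gene positions of GENCODE 44. Over 13113 protein-coding genes with the trend removed, the median was 0.32 on chromosome 13 (208 genes), from -0.23 on chromosome 11 to 0.18 on chromosome 8 elsewhere, and 0.00 over all. Before the trend was removed, chromosome 13 had a median of 0.65, with 83.7% of its genes above 0. Of 287 windows of 10 Mb with at least 10 such genes, 5 had a median of at least 0.5 and 4 of at most -0.5, and the standard deviation of the window medians was 0.20.

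The upper windows were on chromosome 13 and at one end of chromosome 3. The 19 genes of chr13:90000001-100000000 had a median of 0.95, the 12 genes of chr13:100000001-110000000 a median of 1.10 and the 24 genes of chr13:110000001-120000000 a median of 0.90, with 17, 12 and 22 of them above 0. The 19 genes of chr13:70000001-80000000 had a median of 0.51. The 39 genes of chr3:190000001-200000000 had a median of 0.58. In the 10 nM libraries the medians of the first 3 and of the chromosome 3 window were 0.93, 1.06, 0.88 and 0.55. The lower windows were 3 on chromosome 10, between -0.59 and -0.55, and chr5:170000001-180000000 at -0.56 over 77 genes. DNA copy number was not measured.

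SOX21 and ABCC4 lie in the first of these chromosome 13 windows, and their differences with the trend removed, 4.35 and 1.88, stood above the window's median of 0.95. Their neighbors UGGT2 (1.84), CLDN10 (0.77), DNAJC3 (0.79) and TGDS (0.95) were also above 0.

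**Figure D5:**
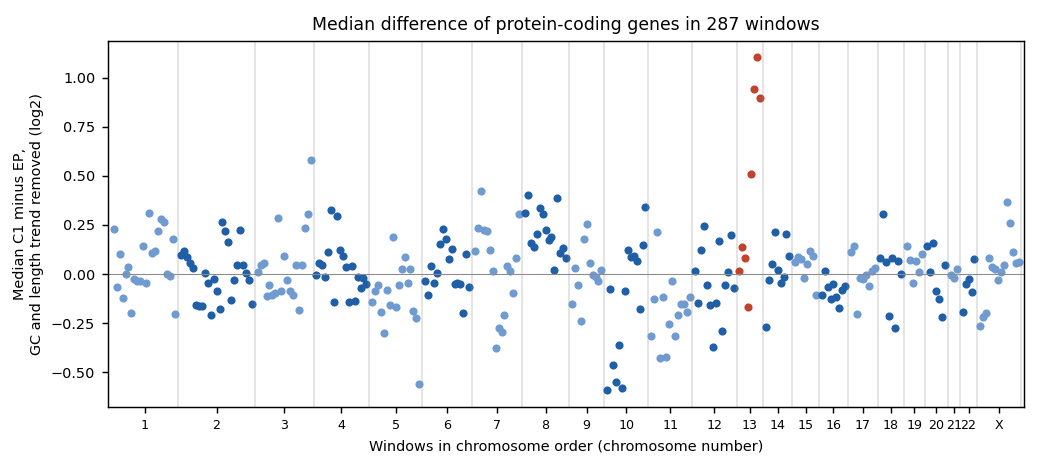
Median difference C1 minus EP of protein-coding genes, with the GC and length trend removed, in log2 units (y axis), in 287 windows in chromosome order (x axis), 1 point per window. The windows of chromosome 13 are drawn in red and reach 1.10, above every other window.

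Some genes were named in 1 table alone, 1576 in the C1 and 933 in the EP table. After names with a counterpart in the other table, unknown names, noncoding locus names and pseudogenes were set aside, 180 genes at 1 CPM or more were left in C1 and 79 in EP. The highest in C1 were MARCHF7, MARCHF6, EMSLR, MARCHF5 and MTARC1; 13 rows of the EP table carry names that read as dates, the form in which spreadsheet programs write older names of such genes, so no difference is read from the MARCHF genes. The highest in EP were TMSB4X (99.1 CPM), CHML (58.6 CPM), OVOS (11.3 CPM), RPP14 (11.04 CPM) and TGFB2 (8.59 CPM). TMSB4X encodes the actin-binding peptide thymosin beta 4. The C1 table keeps genes down to 52 reads summed over its libraries, and why TMSB4X is absent there was not tested, so no loss is read from it. CHML, RPP14 and TGFB2 share exon bases with other genes. Protein-coding genes without shared exons also in EP alone included the homeobox gene TLX3 (6.49 CPM), the hormone gene STC1 (5.80 CPM) and the collagen gene COL8A1 (3.97 CPM). OLAH (7.02 CPM), AIPL1 (4.27 CPM) and RBM46 (3.97 CPM), an RNA-binding protein of meiosis, were in C1 alone.

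The libraries treated with 10 nM PFOS gave a difference of the same kind. By the same rule 236 genes (1.59%) were higher and 338 (2.28%) lower in C1 among 14820 considered. The higher call of 170 of 248 control genes (68.5%) and the lower call of 242 of 362 (66.9%) were found there too, and 245 and 354 of them passed 1 log2 unit with the same sign. The treated libraries come from the same tables, so they are no check on the tables. GRPR differed by -5.76, TAGLN by -4.90, EPHA3 by 4.45, MEIOB by 3.15 and MEG3 by 3.13 in these libraries. TCF7L1 (-1.42) and FOSL1 (-1.70) were called in the controls and not there. DPEP3, which encodes a testis dipeptidase, went from 1.89 in the controls to 3.24 and was called only in the treated libraries.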

How the data were processed

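RNA was measured in 6 control libraries of 2 human cell lines, grouped by their labels. The methods describe 4 biological replicates of RNA from cell cultures per condition, and 2 EP control libraries were analysed here. The labels number the replicates. The authors made stranded mRNA libraries and, per the labels, used STAR for alignment to GRCh38 (p14), featureCounts for reads per gene and limma. The methods of the paper name another patch of GRCh38, and which patch was used for each cell line was not tested. The authors deposited 1 table per cell line, in log2 CPM (with a small prior count), filtered for low reads in each table. Whole reads were recovered from the spacing of these log2 values, and 100% of values were whole within 0.1 read. Rows without a name, 4 in the EP table with at most 0.000443% of reads, were left out. Control libraries held 27.4 to 39.1 M reads.

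Libraries were joined on 15759 gene symbols and scaled together by trimmed means of M values (30% of M and 5% of A trimmed), written in Python 3.11.15 with numpy 2.4.6 and pandas 2.3.3. Genes needed 1 CPM in 2 of 6 libraries, the prior was 2 reads, and a call needed 2 log2 units without overlap. No test was run, because line and table cannot be told apart. GC content, transcript length, shared exon bases and positions came from GENCODE 44, and promoters from RefSeq (GRCh38.p14). The trend was a running median over 50 bins of GC content and of length. Read recovery, scaling and calls were tested on simulated data. These held no GC or length trend, so the removal of the trend was not tested.

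The members and the 37 gene lists were chosen with earlier results of these data known, and 2 of the lists after their members' values were seen. Genes were named by a rule: the 12 with the largest difference in each direction among genes called under all 4 other scalings and at 4 log2 CPM or more in the higher line, without locus names or pseudogenes; up to 4 called genes per list; 20 fixed genes; and the 5 highest genes of each table that the other lacks. Other genes named were chosen after their values were seen. Alternatives were other scalings, priors, filters, folds, trends and libraries, and 2 more, joining older symbols and leaving out shared exons and pseudogenes, were chosen after seeing the data. The X-inactivation gene and Y-linked genes were left out of the genes named and of those counted in 1 table alone. Some genes and 2 lists that the rule covers are not reported here.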

Additional observations from a re-analysis of the deposited data

Results flagged for a closer look

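Of 195 named genes, 12 had 1 C1 control library whose gap to the nearest of the other 3, divided by the range of all 4, passed the 95% critical value of Dixon's test for 4 samples. Chance gives about 5% of genes, or about 1 in 20. The gap shares were 0.911 for CCN1 and 0.872 for TIMP3 in replicate 1 and 0.835 for PITX1 in the same library, each the lowest value. In replicate 2 they were 0.906 for LIN28A (lowest), and 0.905 for VIM and 0.83 for TP73 (highest). In replicate 3 they were 0.943 for INHBA, 0.913 for RB1, 0.836 for FZD2 and 0.834 for SUZ12, each the lowest. In replicate 4 they were 0.919 for COL18A1 (highest) and 0.856 for EOMES (lowest). The largest gap in level was that of INHBA, a gene with few reads in C1, at -1.91 log2 CPM against -0.49 to -0.41 in the other 3 libraries. For SUZ12 the level was 7.33 against 7.37 to 7.38 log2 CPM.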

How the results depend on the processing

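Of 81 named and called genes, the call was lost for 25 with the GC and length trend removed, 46 at 3 log2 units, 9 in the 10 nM PFOS libraries, 6 by total reads, 4 each by quantile normalization, the deposited log2 values and a level trend, and 3 with a prior of 8 reads. All were chosen at 2 log2 units or more, so their unchanged sign is no sign of stability. Of the genes called in the controls, 248 were higher and 362 lower, and 85 were list members. With 1 CPM asked of all libraries these counts were 118, 235 and 56, and at a mean of 10 CPM they were 74, 158 and 48. With 1 log2 unit in place of 2 they were 1696, 2211 and 331, and with 3 log2 units 36, 62 and 25. With the GC and length trend removed 164 genes were lower, and 51 list members were called. These changes follow from fewer genes passing or another fold, except that of the trend, whose cause was not tested. Calls shared with the 10 nM libraries numbered 412, and 237, 155, 2962, 68 and 268 under the same 5 settings, compared after seeing the data. The chromosome 13 median of 0.649 was 0.764 by total reads, 0.718 by quantile normalization, 0.720 with the deposited log2 values, 0.316 with the GC and length trend removed and 0.605 in the 10 nM libraries. Leaving out 1 library at a time gave 246 to 269 genes higher, 256 to 386 lower, and chromosome 13 medians of 0.636 to 0.703. The lower counts were 256 without EP replicate 1 and 313 without EP replicate 2. With 1 EP library left, genes at 1 CPM in EP alone cannot pass the filter of 2 libraries. This takes out lower genes below 1 CPM in every C1 library, which were 81 of the 362. Why the count differed between the EP replicates was not tested. No paired analysis was possible because no test was run and the replicate numbers belong to separate tables of separate lines. Depth limits genes near 1 CPM, where a table's own filter can leave a gene out.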
